A study of Drosophila melanogaster with 18 samples.

Results

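The circadian clock genes described here are the 8 core members tim, per, Clk, cyc, vri, Pdp1, cry and cwo, chosen by name and matched by FlyBase symbol to the gene identifiers of a table of 17611 genes. All 8 were found and all 8 passed the filter on low counts that left 9037 genes for testing. The smallest count of any member in any library was 74, for Clk. Poly-A RNA was sequenced from Drosophila melanogaster ovaries whose labels give stages 1 to 7. Both lines are inbred wild-type genotypes, HP for high plasticity and LP for low plasticity in entering reproductive diapause, the state in which egg production stops. Each line gave ovaries from flies in diapause at 12 °C, from reproductive flies at 12 °C and from 28-day-old age controls at 25 °C, with 3 libraries in each of the 6 groups. Each line is 1 inbred genotype, so a difference between lines is a difference between these genotypes. How old the 12 °C flies were, and at which hour ovaries were dissected, is not given in the sources used here. In comparisons with the age controls, temperature and any difference in age or in hour of dissection therefore cannot be told apart.

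In clock neurons of Drosophila, the CLK and CYC proteins bind as a pair and switch on per and tim, whose products return to the nucleus and shut that pair off, which closes a daily loop. CLK and CYC also switch on vri, Pdp1 and cwo, whose products feed back on Clk and on the loop's targets, and the blue-light receptor CRY marks the TIM protein for destruction in light. The ovary is known as an unusual site, where PER and TIM proteins are present in follicle cells without a daily rhythm. Natural alleles of tim are known to change how often female flies enter diapause.

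Total counts ranged from 14352846 to 21343992 per library, and levels are reads of a gene per 1000000 reads after TMM scaling (CPM), as mean ± SD over 3 libraries. Markers of follicle and escort cells took 0.0761% to 0.108% of the counts in the group means. Genes listed for the germline, fs(1)Yb and piwi among them, took 0.283% to 0.367%. All 13 and all 12 genes of the lists were above 0 in every group. Neuronal markers took at most 0.00686% of the counts of any library. Gad1, VGlut and VAChT, which define neurons by their transmitter, were at or near 0 in all groups. Others of the 13 were present, and 7 passed the filter on low counts. Group means were 1.77 to 4.19 CPM for elav, 1.66 to 6.44 for futsch and 43.6 to 56.5 for Syx1A. Eggshell genes, which late follicle cells switch on, took 0.0379%, 0.188% and 0.764% of the counts in the diapause, reproductive and age-control groups of HP, and 0.206%, 0.57% and 1.58% in those of LP. LP diapause replicate 2 stood apart in its group with 0.379%. The eggshell shares differ between the groups that are compared, and their part in the results on clock genes was not tested. In RNA from mixed ovary tissue, fewer cells of a type and less RNA per cell cannot be told apart.

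Levels can be compared between genes only per length of exon, and on that scale cyc was the most abundant member in every group. The length covers the exons of all transcripts of a gene, 1625 bases for cyc with 1 transcript and 12138 for Pdp1 with 13. Genes with many transcripts, such as Pdp1 and tim, can therefore be understated beside cyc. It ranged from 48.4 to 70.1 CPM per kilobase in the group means, against 1.11 to 1.88 for Clk, the partner its protein binds. The corepressor gene cwo came next with 13.3 to 34.5 CPM per kilobase, and tim spanned 3.77 to 16.5. The repressor gene per spanned 1.76 to 6.4 CPM per kilobase, vri 3.56 to 10.3, Pdp1 3.53 to 9.94 and cry 3.81 to 6.21. The highest group mean was 4.39 times the lowest for tim and 3.63 times for per, and for cyc it was 1.45 times.

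**Figure D1:**
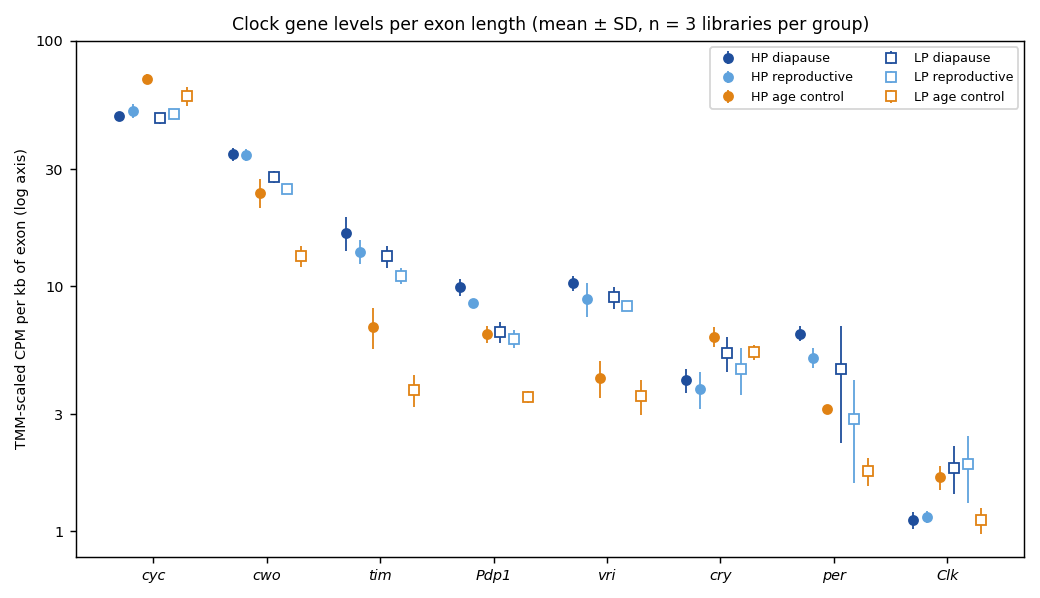
Levels of the 8 clock genes as TMM-scaled CPM per kilobase of exon, on a log axis, with 1 point per group (mean, with bars for the SD over 3 libraries). Circles are the HP line and open squares the LP line, with dark blue for diapause, light blue for reproductive and orange for age control. cyc lies highest, between 48.4 and 70.1, and Clk lowest, between 1.11 and 1.88.

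Clk encodes the basic helix-loop-helix activator of the loop and lies on 3L (7763233 to 7775603, minus strand, BDGP6.54 annotation). Clk transcripts were at 4.73, 5.45 and 4.84 CPM in the HP diapause libraries, 4.9, 5.47 and 5.27 in HP reproductive and 7.77, 6.57 and 8.11 in the HP age controls. In the LP line they were at 6.43, 8.12 and 10.1 CPM in diapause, 6.53, 11.4 and 7.53 in reproductive and 5.62, 5.04 and 4.42 in age-control ovaries. The lines thus went opposite ways. In HP all 6 libraries from 12 °C lay below the 3 from 25 °C, and in LP all 6 lay above them. Clk fell in HP diapause relative to age control (log2 fold change −0.58, SE 0.20, adjusted p = 0.013) and rose in LP diapause (0.71, SE 0.19, adjusted p = 0.0027). The reproductive ovaries gave −0.52 in HP (SE 0.19, adjusted p = 0.023) and 0.76 in LP (SE 0.19, adjusted p = 0.0015). The line difference passed its own test in both cases, at 1.29 (SE 0.28, adjusted p = 0.0023) and 1.28 (SE 0.27, adjusted p = 0.0024).

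The order of the Clk group means ran from LP reproductive (8.5 ± 2.59 CPM) through LP diapause (8.21 ± 1.83) and HP age control (7.48 ± 0.811) to HP reproductive (5.21 ± 0.29), LP age control (5.03 ± 0.597) and HP diapause (5 ± 0.386). The libraries of the first 3 groups overlapped from neighbour to neighbour, as did those of the last 3, and a gap lay between HP age control and HP reproductive. Clk counts were low, from 74 to 224 per library. CG32371 lies within Clk on the same strand and had 31 counts over all 18 libraries. The HP reproductive call was lost without HP reproductive replicate 1, HP age control replicate 1 or HP age control replicate 3, with the fold change between −0.47 and −0.50 without either of these age controls. Both differences between lines kept their call without each library in turn.

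cyc encodes the partner of CLK and lies on 3L (19813770 to 19815938, minus strand). Its transcripts were the steadiest of the 8 within groups, and the gene-wise coefficient of variation beyond counting error was 0.062, against 0.253 for per. The cyc level was 80 ± 1.79 CPM in HP diapause, 83.8 ± 5.51 in HP reproductive and 114 ± 4.8 in the HP age controls. In LP it was 78.6 ± 4.2, 81.7 ± 2.49 and 96.4 ± 8.46 CPM. The 4 groups from 12 °C overlapped from neighbour to neighbour, and both 25 °C groups lay above them. cyc fell in diapause relative to age control in HP (−0.51, SE 0.07, adjusted p = 9.2e-07) and in LP (−0.30, SE 0.07, adjusted p = 0.00046). The reproductive ovaries gave −0.44 (adjusted p = 6.3e-06) and −0.24 (adjusted p = 0.0032). Within the LP ovaries from 12 °C, the 2 activator genes therefore differed from age control in opposite directions.

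tim encodes the repressor that light removes and lies on 2L (3493986 to 3508119, minus strand). Its level was 132, 96.2 and 121 CPM in the HP diapause libraries, 85.1, 101 and 106 in HP reproductive and 56.7, 38.6 and 48.9 in the HP age controls. The LP libraries had 92.8, 83.2 and 103 CPM in diapause, 70.9, 78.2 and 82.5 in reproductive and 30.2, 27.1 and 22.3 in age-control ovaries. Every library from 12 °C lay above every library from 25 °C, across both lines. tim rose 2.42-fold in HP diapause over age control (log2 1.28, SE 0.15, adjusted p = 1.1e-06) and 3.51-fold in LP diapause (1.81, SE 0.15, adjusted p = 1.9e-08). In reproductive ovaries it rose 2.02-fold in HP (1.02, SE 0.15, adjusted p = 1.5e-05) and 2.91-fold in LP (1.54, SE 0.15, adjusted p = 1.7e-07). The larger LP values were not shown to differ from the HP ones, with line differences of 0.53 in both comparisons (SE 0.21 each, adjusted p = 0.089 and 0.1). DESeq2 on the same counts called both differences (adjusted p = 0.046 and 0.048).

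The tim group means ran from 116 ± 18.1 CPM in HP diapause through HP reproductive (97.3 ± 10.8), LP diapause (92.9 ± 9.84), LP reproductive (77.2 ± 5.83) and HP age control (48.1 ± 9.09) to LP age control (26.5 ± 3.95). The libraries of the first 3 groups overlapped from neighbour to neighbour and those of the lower ones did not. The tim gene spans a small nucleolar RNA with no count and an antisense RNA with 15 counts over all libraries.

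per encodes the partner of TIM and lies on X (2685580 to 2692780, plus strand). Its level was 26.6, 29.8 and 30.5 CPM in the HP diapause libraries, 20.9, 25.3 and 23.3 in HP reproductive and 15, 13.9 and 14 in the HP age controls. In LP it was 32.7, 14 and 15.7 CPM in diapause, 19.6, 8.63 and 10.7 in reproductive and 8.43, 8.71 and 6.82 in age-control ovaries. In HP the 3 groups did not overlap. In LP, replicate 1 of both the diapause and the reproductive group stood far above the other libraries of its group, and replicate 1 of the age control did not. per rose in diapause over age control in HP (1.02, SE 0.30, adjusted p = 0.0077) and LP (1.39, SE 0.31, adjusted p = 0.0012). The reproductive ovaries gave 0.70 in HP (adjusted p = 0.055) and 0.69 in LP (adjusted p = 0.072), and neither passed.

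Those 2 LP libraries moved the LP values of per, and a fit without them was added after the data were seen. Without both, the LP diapause value fell from 1.39 to 0.89 (SE 0.13, adjusted p = 8.5e-06) and the LP reproductive value from 0.69 to 0.27 (SE 0.13, adjusted p = 0.085). The SE of the LP diapause value was 0.31 with these libraries and 0.13 without them, and the call held in both fits. The 2 libraries were left out for their high per, so lower values and a smaller SE were built into the second fit. Few genes shared the pattern. Of 6978 genes that reached 5 CPM in an LP library from 12 °C, 7 had more than 1.5 times the level in replicate 1 than in each other library, in both groups. Beside per these were Cpr30B, CG7443, CG31176, CG7778, CG43394 and CG5973, none of them on X. sgg and Spg7, also on X, had 157, 139 and 149 and 95.9, 107 and 101 CPM in the LP diapause libraries. The last 49 bases of per overlap dyw on the other strand, a gene with 87 counts over all libraries.

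In the 2 LP groups from 12 °C, the replicate 1 libraries, highest in per, were the lowest of their groups in Clk (6.43 and 6.53 CPM) and in cry (9.03 and 7.01). These libraries were singled out after the data were seen. In diapause the cry gap was small, since replicate 2 had 9.32 CPM and counting error was 7.58% and 7.65%. The opposition did not hold throughout. LP diapause replicate 2 was the lowest of its group in per (14 CPM) but not the highest in Clk (8.12) or cry. LP reproductive replicate 2 had the lowest per level of the 6, at 8.63 CPM, and the highest Clk level, at 11.4. The libraries of HP from 12 °C sat together at 20.9 to 30.5 CPM of per and 4.73 to 5.47 of Clk.

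**Figure D2:**
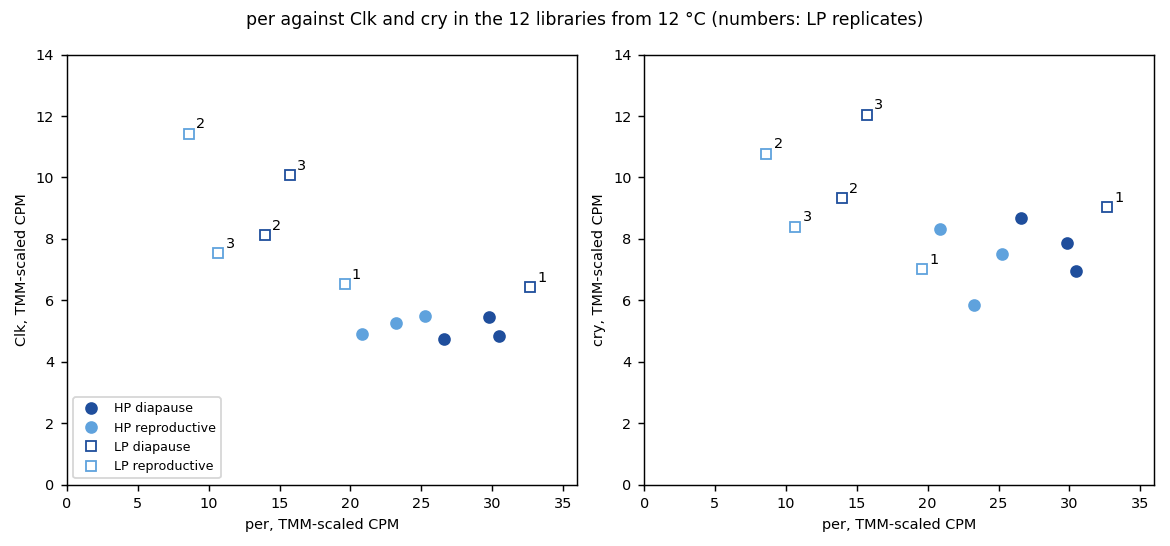
Levels of per (x axis) against Clk (left) and cry (right) as TMM-scaled CPM in the 12 libraries from 12 °C, with 1 point per library. Filled circles are HP and open squares LP, with replicate numbers beside the LP points. The 2 LP libraries numbered 1 lie at 32.7 and 19.6 CPM of per and at 6.43 and 6.53 CPM of Clk.

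cwo encodes a corepressor that competes with CLK and CYC for their sites, and lies on 3R (10388258 to 10400752, plus strand). Its level was 187, 165 and 175 CPM in the HP diapause libraries, 170, 185 and 168 in HP reproductive and 138, 105 and 124 in the HP age controls. The LP libraries had 139, 136 and 152 CPM in diapause, 129, 125 and 128 in reproductive and 75.3, 63.4 and 64.2 in age-control ovaries. The 12 °C libraries lay above the 25 °C libraries of their own line, and LP age control lay below all others. cwo rose in diapause over age control by 0.52 in HP (SE 0.08, adjusted p = 1.4e-05) and 1.07 in LP (SE 0.09, adjusted p = 7.5e-10). In reproductive ovaries it rose by 0.51 (SE 0.08, adjusted p = 2e-05) and 0.91 (SE 0.09, adjusted p = 1.2e-08). The LP response exceeded the HP response by 0.55 in diapause (SE 0.12, adjusted p = 0.0027) and by 0.40 in reproductive ovaries (SE 0.12, adjusted p = 0.026), and the second of these lost its call in 8 of the 12 fits that left out 1 library and under scaling by total counts (adjusted p = 0.072).

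vri encodes a repressor of Clk and lies on 2L (5288944 to 5311223, plus strand). The vri level was 48.6 ± 3.5 CPM in HP diapause, 42.1 ± 6.63 in HP reproductive and 20 ± 3.43 in the HP age controls. The LP means were 42.7 ± 4.32, 39.4 ± 1.28 and 16.9 ± 2.73 CPM in the same order. The 4 groups from 12 °C overlapped one another in order, and so did the 2 age-control groups far below them. vri rose in diapause over age control by 1.28 in HP (SE 0.13, adjusted p = 8.8e-08) and 1.34 in LP (SE 0.13, adjusted p = 4.1e-08). In reproductive ovaries it rose by 1.08 (adjusted p = 1e-06) and 1.22 (adjusted p = 1.8e-07). vri and cry were the members not called different between the lines in any state, although vri in LP against HP age controls (−0.24) was called without HP age control replicate 2 (−0.39, adjusted p = 0.023) or without LP age control replicate 1 (−0.38, adjusted p = 0.041). The vri line difference in the diapause response was 0.06 (95% interval −0.34 to 0.45).

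Pdp1 encodes an activator of Clk and lies on 3L (7811458 to 7867369, minus strand), with 13 annotated transcripts that a count per gene adds together. Its level was 121 ± 9.65 CPM in HP diapause, 104 ± 3.73 in HP reproductive and 77.4 ± 6.29 in the HP age controls. In LP it was 78.9 ± 7.61, 74.1 ± 6.42 and 42.9 ± 2.3 CPM. LP ovaries from 12 °C were thus at the level of HP ovaries from 25 °C, and those 3 groups overlapped from neighbour to neighbour. Pdp1 rose in diapause over age control by 0.64 in HP (SE 0.08, adjusted p = 6.3e-07) and 0.88 in LP (SE 0.08, adjusted p = 7.8e-09). In reproductive ovaries it rose by 0.42 (adjusted p = 0.00013) and 0.79 (adjusted p = 5.2e-08). The line difference was 0.24 in diapause (adjusted p = 0.16) and 0.37 in reproductive ovaries (SE 0.12, adjusted p = 0.032), and the latter lost its call in 7 of 12 fits that left out 1 library and under scaling by total counts (adjusted p = 0.09). Pdp1 is also expressed in muscle, and the 18 muscle markers took 0.21%, 0.18% and 0.0902% of the counts in HP diapause, reproductive and age-control ovaries and 0.193%, 0.15% and 0.149% in LP. Their part in the Pdp1 result was not tested.

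cry encodes the light receptor and lies on 3R (19212154 to 19215442, plus strand). Its level was 7.83 ± 0.862 CPM in HP diapause, 7.23 ± 1.26 in HP reproductive and 11.8 ± 1.1 in the HP age controls. The LP means were 10.1 ± 1.66, 8.73 ± 1.9 and 10.2 ± 0.687 CPM. The HP age-control libraries lay above all 6 other HP libraries, and the LP groups overlapped one another. cry fell in HP diapause relative to age control (−0.59, SE 0.16, adjusted p = 0.0031) and in HP reproductive ovaries (−0.70, SE 0.16, adjusted p = 0.00075). LP diapause gave −0.01 (95% interval −0.34 to 0.32) and LP reproductive −0.22 (−0.55 to 0.11). The lines were not shown to differ in this, with line differences of 0.58 (adjusted p = 0.083) and 0.48 (adjusted p = 0.16). The last 9 bases of cry overlap the antisense gene vib, which had 36525 counts over all libraries. The first 574 bases of cry overlap lncRNA:CR46393 on the same strand, which had 9 counts. The effect of these overlaps on the cry counts was not tested.

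**Figure D3:**
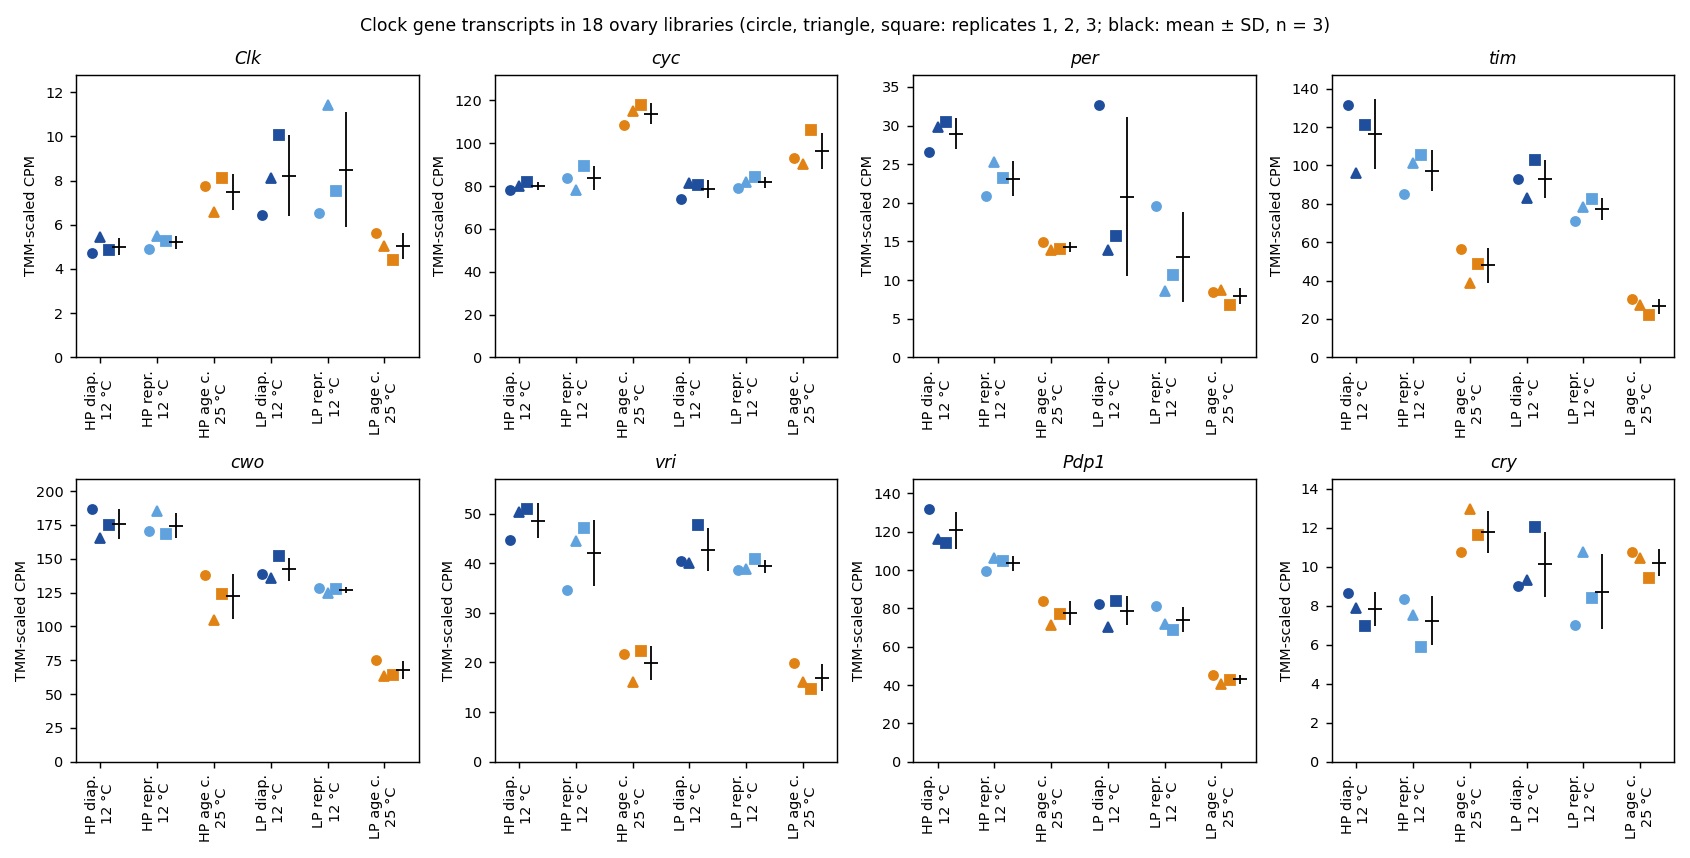
Levels of the 8 clock genes in all 18 libraries, as TMM-scaled CPM on axes that start at 0, with 1 panel per gene. Dark blue is diapause, light blue reproductive and orange age control; circles, triangles and squares are replicates 1, 2 and 3, and black marks give the mean ± SD of 3 libraries. In tim every library from 12 °C lies above 70 CPM and every age control below 57, while Clk is lower at 12 °C in HP and higher in LP.

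Diapause and reproductive ovaries both came from 12 °C, so temperature did not differ between them, and no clock gene was called. The age of these flies and the hour of dissection are not given. Eggshell genes took 0.0379% and 0.188% of the counts in HP and 0.206% and 0.57% in LP, so the comparison does not isolate the arrest. In HP 0 of 8 members passed where 0.852% of tested genes did, and in LP 0 of 8 where 1.45% did. The mean of both lines gave 0 of 8, beside 9.46% of tested genes. With so few genes called at all, these counts are no result about the members. With no adjustment for the number of genes, 1 member passed 0.05 in HP (Pdp1 at 0.22, 95% interval 0.05 to 0.39), 1 in LP (per at 0.70, 0.04 to 1.36) and 3 in the mean of both lines (tim, per and Pdp1). DESeq2 called none of the 8 in these comparisons. The median of the members was 0.16 in HP and 0.14 in LP, beside 0.001 and 0.008 over all tested genes.

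The intervals say how large a difference could have gone unseen. For tim the mean of both lines was 0.26 (95% interval 0.05 to 0.48, adjusted p = 0.11), with 0.26 in HP and 0.27 in LP. For cyc it was −0.06 (−0.16 to 0.04), the narrowest interval of the 8, for Pdp1 0.16 (0.04 to 0.28, adjusted p = 0.085) and for cwo 0.09 (−0.04 to 0.21). For per it was 0.51 (0.05 to 0.97, adjusted p = 0.14), and without LP diapause replicate 1 and LP reproductive replicate 1 it was 0.47 (SE 0.09) and was called (adjusted p = 0.016). Those libraries were singled out for their high per, so the smaller spread behind that call follows from the choice. For Clk the mean of both lines was −0.06 (−0.35 to 0.23), a lower and an upper bound that allow a change in either direction. A fit to the HP diapause and HP reproductive libraries alone called per (0.32, SE 0.09, adjusted p = 0.029) and Pdp1 (0.22, SE 0.06, adjusted p = 0.032). The line difference in this contrast was called for 0 of 8 members and 0% of tested genes, with 0 members and 366 of all tested genes under 0.05 before adjustment, and DESeq2 called 6 genes, none a member. Its values ran from −0.13 for Pdp1 to 0.37 for per.

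Ovaries from 12 °C differed from age controls in most tested genes, so a call in itself says little about a clock gene. In HP diapause 8 of 8 members were called, 5 higher and 3 lower, where 68.6% of tested genes were called (34% higher and 34.7% lower). In LP diapause it was 7 of 8, 6 higher and 1 lower, beside 71.9% (36.6% and 35.3%). HP reproductive ovaries gave 7 of 8, 4 higher and 3 lower, beside 65.3% (32.2% and 33.1%), and LP reproductive ovaries 6 of 8, 5 higher and 1 lower, beside 67.6% (33.9% and 33.7%). Read against these backgrounds, the counts are no result about the members. By role, tim, vri, Pdp1 and cwo rose in all 4 comparisons, per rose in both diapause comparisons, and the activator gene cyc fell in all 4. Diapause and reproductive ovaries of a line share their age controls, so the pairs of comparisons are not independent.

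Most markers of follicle and escort cells, such as tj, Fas3 and eya, moved with these members. zfh1 and bun went the other way, with 46.5 and 360 CPM in HP diapause against 61 and 413 in HP age controls. In LP they were at 39.8 and 273 CPM against 59.4 and 337. Of the 13 markers, 10 were called higher and 1 lower in HP diapause than in age controls, beside 34% and 34.7% of all tested genes (median 0.56, beside 0.58 for the 8 clock genes), and 10 higher and 2 lower in LP diapause, beside 36.6% and 35.3% (median 1.13, beside 0.975 for the clock genes). In reproductive ovaries it was 6 higher and 1 lower in HP, beside 32.2% and 33.1% of all tested genes, and 11 higher and 2 lower in LP, beside 33.9% and 33.7%. Between the lines, 8 markers were lower and 1 higher in LP age controls than in HP ones, beside 41.9% of all tested genes called (21.9% lower). Lists for other cell types shifted too. Of 17 tested muscle markers, 14 were called higher and 1 lower in HP diapause than in age controls, and 13 and 0 in LP. Of the 12 genes listed for the germline, fs(1)Yb and piwi among them, it was 6 and 4 in HP and 8 and 3 in LP. In LP against HP age controls, 7 genes of the germline list were lower and 1 higher, and 16 muscle markers were higher and 0 lower. The part of these cell types in the results on tim, vri, Pdp1, cwo and per was not tested.

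**Figure D4:**
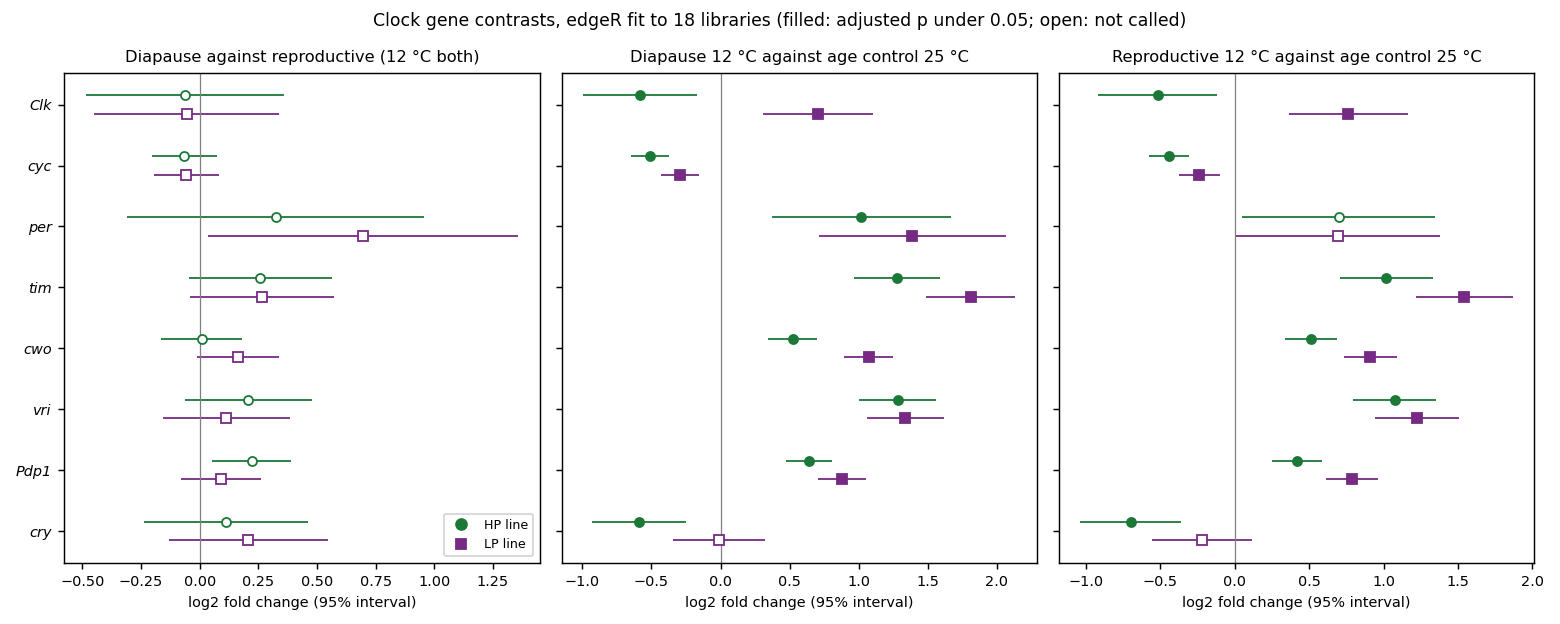
Log2 fold changes of the 8 clock genes with 95% intervals, for diapause against reproductive (left), diapause against age control (middle) and reproductive against age control (right), on separate x scales. Circles are HP and squares LP, and filled symbols passed an adjusted p of 0.05. No symbol is filled on the left, and Clk lies at −0.58 in HP and 0.71 in LP in the middle.

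Between lines, LP age-control ovaries had less of 6 of the 8 clock transcripts than HP ones, where 41.9% of tested genes were called (21.9% lower). These were tim (−0.86, SE 0.15, adjusted p = 0.00027), cwo (−0.86, SE 0.09, adjusted p = 1.3e-07), Pdp1 (−0.85, SE 0.08, adjusted p = 8.1e-08), per (−0.84, SE 0.32, adjusted p = 0.047), Clk (−0.58, SE 0.19, adjusted p = 0.02) and cyc (−0.24, SE 0.07, adjusted p = 0.0056). The per call was lost without any 1 of the 6 libraries, and the Clk call without HP age control replicate 1, HP age control replicate 3 or LP age control replicate 3. Scaled by total counts alone, the per and cyc calls were lost (adjusted p = 0.058 and 0.078). tim, cwo and Pdp1 kept their calls in each of these fits.

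At 12 °C fewer members were called between the lines than in age controls, and so were fewer of all tested genes. tim missed the cutoff at −0.325 in diapause (adjusted p = 0.098) and −0.333 in reproductive ovaries (adjusted p = 0.086). Beside the shares of all tested genes, the counts of members are no result about them. In diapause 3 of 8 were called beside 32.6% of tested genes (17.4% higher and 15.2% lower), with Clk higher in LP (0.71, SE 0.20, adjusted p = 0.0086), and Pdp1 (−0.61, SE 0.08, adjusted p = 6.7e-06) and cwo (−0.31, SE 0.08, adjusted p = 0.0079) lower. In reproductive ovaries 4 of 8 were called beside 35.1% (18.4% higher and 16.7% lower), with Clk again higher (0.71, SE 0.19, adjusted p = 0.0077), and Pdp1 (−0.48), cwo (−0.46) and per (−0.85, SE 0.31, adjusted p = 0.045) lower. The per call was lost in 5 of the 6 fits that left out 1 library. The Clk calls rest on a library each, since without LP diapause replicate 3 the diapause value was 0.53 (adjusted p = 0.064) and without LP reproductive replicate 2 the reproductive value was 0.43 (adjusted p = 0.095). With all libraries per was at −0.47 in diapause (adjusted p = 0.25). Without LP diapause replicate 1 and LP reproductive replicate 1 it was at −0.97 in diapause (adjusted p = 1.6e-05) and −1.27 in reproductive ovaries (adjusted p = 1.1e-06). Those 2 libraries were singled out for their high per. Leaving them out had to lower per in LP and its spread, so these p-values are no test of the lines. The tests of the line difference called 2 of 8 members in the diapause response, beside 18.4% of tested genes (11.1% higher in LP), and 3 of 8 in the reproductive response, beside 16.6% (9.69% higher in LP). All 5 of these values, for Clk, cwo and Pdp1, were higher in LP.

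Clock proteins are timed by kinases, phosphatases and ubiquitin ligases, and a list of 18 such genes, all tested, was mostly lower at 12 °C. In HP diapause 15 were called against age control, 1 higher and 14 lower, beside 68.6% of all tested genes (34.7% lower), and in LP diapause 16, 3 higher and 13 lower, beside 71.9% (35.3% lower; list medians −0.32 and −0.31, beside 0.01 and 0.03 over all tested genes). dco, the Doubletime kinase that marks PER for degradation, gave −0.65 in HP (SE 0.06, adjusted p = 1.3e-08) and −0.68 in LP (SE 0.06, adjusted p = 4.1e-09). slmb, the F-box protein that carries marked PER to degradation, gave −0.40 and −0.51, and Cul1, the scaffold of its ligase, −0.46 and −0.41. SkpA, the adaptor of that ligase, gave −0.35 and −0.36, and the kinase gene nmo −0.44 and −0.73. Reproductive ovaries gave 12 calls in HP, 1 higher and 11 lower, beside 65.3% of all tested genes (33.1% lower), and 14 in LP, 2 higher and 12 lower, beside 67.6% (33.7% lower).

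Of 19 coregulators, RNA regulators and nuclear receptors, 18 were tested, and Hr51 was not. In HP diapause 13 were called against age control, 4 higher and 9 lower, beside 68.6% of all tested genes, and in LP diapause 15, 5 higher and 10 lower, beside 71.9% (medians −0.15 and −0.22). The HP share of called genes lies near that of all tested genes and is no result about the list. The deubiquitinase gene not, of the SAGA complex, gave −0.86 in HP (adjusted p = 2.3e-09) and −1.04 in LP (adjusted p = 7.6e-11). The RNA-binding protein gene Psi gave 0.74 and 0.66, and Nipped-A −0.66 and −0.86. The histone demethylase gene Kdm5 gave −0.97 and −1.06, and the splicing factor gene B52 0.48 and 0.73.

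Of 16 listed input and output genes of the clock, 4 passed the filter on low counts and were tested. Pdf, the main clock neuropeptide, had a group mean of at most 0.257 CPM, and the peptide gene Dh31 of at most 0.09. The Pdf receptor gene Pdfr rose in diapause over age control in HP (0.68, SE 0.20, adjusted p = 0.0051) and LP (1.19, SE 0.21, adjusted p = 3.4e-05). qsm, a light-input gene in clock neurons, rose by 1.01 (SE 0.08, adjusted p = 5.5e-10) and 1.49 (SE 0.08, adjusted p = 2.4e-12), and the LP response exceeded the HP response by 0.49 (SE 0.11, adjusted p = 0.0036). norpA, the phospholipase C of phototransduction, fell (−0.46 and −0.69), and nocte, a gene of temperature entrainment, was at −0.05 in HP (adjusted p = 0.64) and fell in LP (−0.53, SE 0.10, adjusted p = 7.6e-05).

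Between diapause and reproductive ovaries, edgeR called 0 of the 40 tested genes of these 3 lists in HP and 0 in LP, with 10 and 7 under 0.05 before adjustment, and DESeq2 called 0 and 1. In the mean of both lines 7 of the 40 were called, 2 higher and 5 lower, beside 9.46% of all tested genes. Among the lower ones were tws (−0.15, adjusted p = 0.021), Cul1 (−0.15, adjusted p = 0.026) and ctrip (−0.22, adjusted p = 0.031). These calls depended on single libraries. With 1 library left out, the list with the kinases gave 0 to 3 calls against 3. The coregulator list gave 0 to 2 against 3, and the input and output list 0 to 1 against 1.

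The genes whose log2 levels over the 18 libraries were most like each clock gene are given as a description, since the libraries share groups, depth and scaling. For tim these were the endocytic receptor gene Cubn (Pearson r = 0.989) and the collagen IV genes Col4a1 (0.988) and vkg (0.987). For cwo they were qin (0.988), pnt (0.983) and Cap-H2 (0.982), for Pdp1 Rexo5 (0.985), eIF5B (0.984) and Dis3 (0.984), and for vri mew (0.976), MFS12 (0.973) and Ca-beta (0.972). For cyc they were kin17 (0.955), Bap60 (0.948) and GstT2 (0.946). The members with low counts or a wide spread had less similar genes. For per they were Sobp (0.932), hid (0.924) and TP53INP (0.917), for cry Gel (0.862) and CLS (0.851), and for Clk emc (0.871), Hrb98DE (0.853) and vas (0.825). No clock gene was among the 3 closest genes of another.

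Col4a1 and vkg stood in the list of haemocyte markers, whose 13 genes together took 0.255%, 0.226% and 0.126% of the counts in HP diapause, reproductive and age-control ovaries and 0.213%, 0.177% and 0.0853% in LP. Col4a1 itself was at 1280 ± 162, 1080 ± 88.2 and 478 ± 69.1 CPM in HP and 1090 ± 183, 853 ± 35.9 and 224 ± 52.3 in LP. Of the 13, 9 were tested. In HP diapause 6 were called higher and 0 lower than in age controls, beside 68.6% of all tested genes called (34% higher and 34.7% lower). In LP diapause it was 4 higher and 0 lower, beside 71.9% (36.6% and 35.3%). The share of the 9 that was called was near that of all tested genes in HP and below it in LP. Among the other members, Ppn was at 128, 88.1 and 36.2 CPM in the HP groups in the same order and 31, 15.6 and 12.9 in the LP groups, Pxn at 27.8, 18.6 and 6.05 and at 21.5, 14.4 and 19.3, and Hml at 3.52, 2.11 and 1.06 and at 2.19, 1.23 and 2.42. The receptor genes NimC1 and eater and the surface protein gene He, 3 other haemocyte markers, had group means of at most 0.513, 0.406 and 0.0311 CPM. Col4a1 and vkg are also made by follicle cells of the ovary, which lay down the basement membrane of the egg chamber. The part of haemocytes and of follicle cells in the tim result was not tested.

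**Figure D5:**
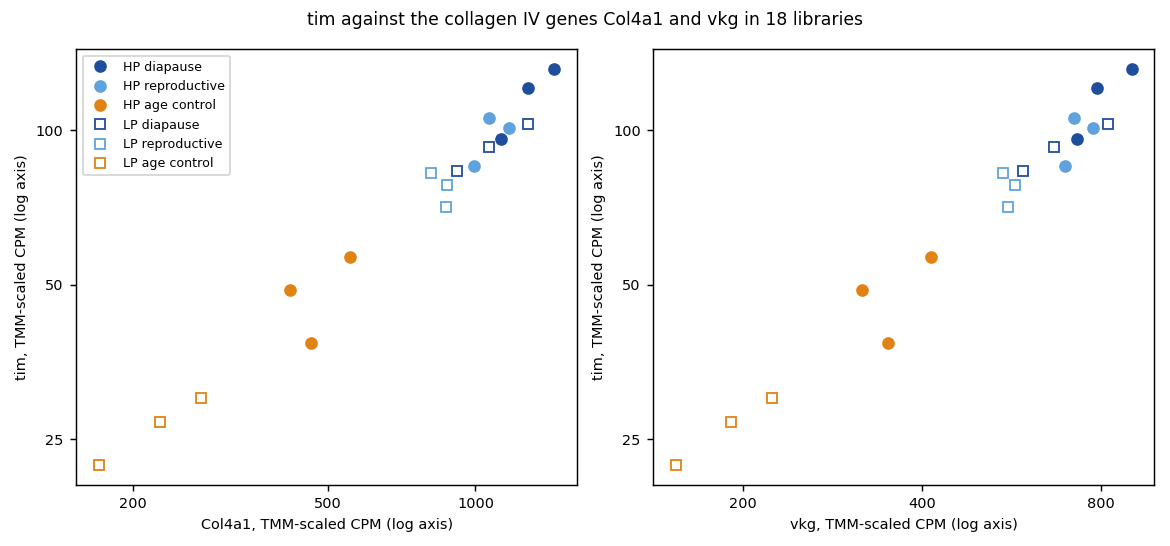
Level of tim (y axis) against Col4a1 (left) and vkg (right) in the 18 libraries, as TMM-scaled CPM on log axes, with filled circles for HP and open squares for LP. The LP age controls lie lowest on both axes, with tim at 22.3 to 30.2 CPM, and HP diapause replicate 1 highest, with tim at 132 CPM. HP diapause replicate 2, with tim at 96.2 CPM, lies below HP reproductive replicate 2 and LP diapause replicate 3 on both axes.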

How the data were processed

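The authors deposited whole-number read counts for each gene in 18 libraries, not normalised, in the column layout of featureCounts, per the file headers. Besides that counter, Trimmomatic, STAR and DESeq2 appear in the submitters' processing notes, with roles, versions and settings not given in the sources used here. Whether counting used strand is not stated, so reads of overlapping genes cannot be told apart. Coordinates are those of the table, counted from 1, and equal the Ensembl BDGP6.54 annotation for the 8 genes, which supplied symbols. With edgeR 4.0.16 (R 4.3.3, limma 3.58.1), counts were scaled by TMM, filtered by filterByExpr and fitted by a robust quasi-likelihood model with 1 mean per group (12 residual degrees of freedom), giving 13 contrasts. A gene was called at an adjusted p under 0.05, by Benjamini-Hochberg over the 9037 tested genes. Each adjusted p is from this fit unless DESeq2 (1.42.0) or another fit or scaling is named. Those alternatives adjusted over their own tested genes. Fold changes are log2, and SE is their standard error. The fit was run on simulated data in which a small part of the genes changed, in HP diapause only. In the data most genes were called between 12 °C and age controls, so that run does not check the scaling there. Labels call the libraries biological replicates without naming their source, so p-values measure the spread between these samples. The members and lists were chosen with earlier results of these data known. Genes named are the 8 members, up to 4 called genes of each list with the smallest p, the 3 genes most like each member among named protein-coding symbols (1 of them is not reported here), and a few chosen after their values were seen: those sharing the per pattern, sgg, Spg7, Hr51, Pdf, Dh31 and the marker genes. Alternatives were other scalings, DESeq2, no filter, fewer groups, a replicate block and leaving out libraries.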

Additional observations from a re-analysis of the deposited data

Results flagged for a closer look

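The responses of HP and LP ovaries differed in 5 results, each by a test of the line difference itself (LP minus HP, edgeR, log2). They were 2 of 8 members in diapause against age control, beside 18.4% of all tested genes. In reproductive against age control they were 3 of 8, beside 16.6%. For Clk the difference was 1.29 (adjusted p = 0.0023) in diapause against age control and 1.28 (adjusted p = 0.0024) in reproductive against age control, with the lines moving in opposite directions. For cwo it was 0.55 (adjusted p = 0.0027) and 0.40 (adjusted p = 0.026), with a rise in both lines that was larger in LP. For Pdp1 it was 0.37 (adjusted p = 0.032) in reproductive against age control, again with a rise in both lines. In reproductive against age control, the cwo call was lost in 8 and the Pdp1 call in 7 of the 12 fits that left out 1 library. Scaling by total counts lost these calls too. Both contrasts use the same age controls within a line, so the paired values are not independent.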

How the results depend on the processing

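With 3 libraries a group, counts of Clk from 74 and of cry from 99 a library limit small differences. For Clk, cyc, vri, cwo, tim and Pdp1 no alternative changed the call of a difference between 12 °C and age control within a line, except Clk in HP reproductive ovaries without 1 library, as given above. Members called for the line difference in reproductive against age control numbered 3, against 1 under total counts, 1 without LP diapause replicate 1 and LP reproductive replicate 1 together, and 1 to 4 without each library in turn. For HP diapause against reproductive it was 0, against 2 in the fit to those groups alone. For the mean of both lines it was 0, against 1 without those 2 LP libraries together and 0 to 1 without each in turn. For LP against HP in reproductive ovaries it was 4, against 2 to 4.

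Signs turned only for values that were not called. Under total counts cwo in HP diapause against reproductive was −0.027 and the vri line difference in diapause against age control −0.023. Without the 2 LP libraries together, cry in LP diapause against age control was 0.059, cyc between lines in diapause 0.011 and the per line difference in diapause against age control −0.123. Without each library in turn, diapause against reproductive ran from −0.038 to 0.053 for cwo in HP, −0.014 to 0.224 for cry in HP, −0.23 to 0.22 for Clk in LP and −0.146 to 0.079 for Clk in the mean of lines. cry in LP diapause against age control ran from −0.159 to 0.058, and cyc between lines from −0.055 to 0.011 in diapause and −0.085 to 0.007 in reproductive ovaries. The line differences ran from −0.12 to 0.59 (per, diapause), −0.42 to 0.22 (per, reproductive) and −0.033 to 0.198 (vri, diapause).

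All genes called in HP diapause against reproductive numbered 77, against 48 without the filter, 117 under total counts, 317 by DESeq2, 663 in the fit to those groups alone and 7 to 45 without each library. In LP it was 131, against 447 by DESeq2, 290 in the groups alone, 2 without both LP libraries and 6 to 247 without each. For the mean of lines it was 855, against 1638, 220 and 378 to 906. Total counts moved the median of all genes from 0.01 to −0.13 in HP and from 0.03 to −0.20 in LP diapause against age control, and the share of higher calls from 49.5% to 38.6% and from 50.9% to 36%. For reproductive against age control that share went from 49.3% to 39.3% and from 50.1% to 35.4%, for LP against HP in age controls from 47.6% to 62.1%, and for the line differences from 60.5% to 42.7% and 58.4% to 41.4%. The cause was not tested.

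The replicate numbers were not shown to pair libraries, since deviations of same-numbered libraries correlated from −0.16 to 0.16 and 5 of 18 libraries matched best with their own number. A replicate block called per in HP reproductive against age control (0.71, adjusted p = 0.039) and changed no other call of a clock gene.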
